A study of Mus musculus with 12 samples.

Results

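The cytosolic ribosomal protein genes were followed through brain RNA of 12 mice from the 5xFAD amyloid model. The genes were chosen by name: a symbol made of Rpl or Rps with a number and at most 1 of the letters a, l or x, the stalk names Rplp0 to Rplp2, or Rpsa. A total of at least 100 counts over the 12 libraries was also required. Of 21643 rows in the count table, 81 carried such a name and 77 reached that total. All 77 also passed the filter on low counts, among 15061 genes tested. The 4 that fell short were Rpl24 with 64 counts, Rpl3l with 89, Rpl39l with 11 and Rpl10l with 1. By name, the 77 members comprise 42 genes of the large subunit, 32 of the small subunit and the 3 stalk genes. Among the 32 is Rps4l, which is annotated as a pseudogene. They lie on 19 chromosomes, with 4 on the X. Some ribosomal protein genes with other kinds of names fell outside the rule, among them Fau, Rack1 and Rpl22l1.

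Every mouse carried the 5xFAD transgenes, in which the neuronal Thy1 promoter drives mutant human amyloid precursor protein and presenilin, and the strain was not specified. There were 4 groups of 3 mice. The ShK-223 mice received a peptide modelled on the toxin of a sea anemone, the PAP-1 mice a small molecule, and the PBS mice buffer, and the last group was labelled Control. ShK-223 and PAP-1 both block Kv1.3, a potassium channel of T cells and microglia encoded by Kcna3, and the series asks what that block does in a brain with amyloid. No wild-type mice were analysed here. Dose, route, duration, age, sex and the way in which Control differs from PBS were not given in the sources used here. Libraries came from separate mice, and replicate numbers only name them.

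The cytosolic ribosome is built from ribosomal RNA and roughly equal amounts of each ribosomal protein. Messenger RNAs of ribosomal proteins begin with a run of pyrimidines (C or T in the DNA) at the cap, the terminal oligopyrimidine or TOP motif. Through it the kinase complex mTORC1 and the cap-binding protein Larp1 control how much of each message is translated. Transcription of these genes is raised in growing cells, with Myc among the known activators. In the brain, ribosomal protein messages are present in every cell type and also in neuronal processes. The present data measure the amount of RNA only, not its translation.

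A stretch near the start of transcription is printed for 9 members. It holds a pyrimidine run of the kind common in this gene family, and the results below return to these genes. They are members among those with the largest fold changes (Rpl41, Rps2, Rpl10), others with long runs or set apart by their role (Rpl39, Rplp2, Rps6), and members with the steadiest share (Rpl27a), the flattest level (Rps15a) and the lowest count (Rps10). Rps15a was chosen after its values were seen. Sequences are from RefSeq on GRCm38.p6, written 5′ to 3′ on the strand of the gene, with the longest run of C or T within 60 bases before to 50 bases after the RefSeq start in capitals. At most 30 bases after the start are shown. For Rpl41, Rps2, Rpl10 and Rpl39 these are the last 30 bases of the stretch searched, ending at base 50 after the start. The printed letters of these genes do not include the start itself, and their runs do not lie at it.
Rpl41, chr10:128549119-128549148, minus strand: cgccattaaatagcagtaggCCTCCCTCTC
Rps2, chr17:24720083-24720112, plus strand: aaattgtcccttccgcggcgCCTCCCTCTT
Rpl10, chrX:74270836-74270865, plus strand: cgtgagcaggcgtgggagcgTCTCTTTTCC
Rpl39, chrX:37085173-37085202, minus strand: gttcttccggtcccggCCTTTCTCTTCTCC
Rplp2, chr7:141447616-141447670, plus strand: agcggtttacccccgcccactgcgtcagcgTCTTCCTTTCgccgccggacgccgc
Rps6, chr4:86857344-86857398, minus strand: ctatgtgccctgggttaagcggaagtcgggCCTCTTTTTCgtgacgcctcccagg
Rpl27a, chr7:109519161-109519224, plus strand: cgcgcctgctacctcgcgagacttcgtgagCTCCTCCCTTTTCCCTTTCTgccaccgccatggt
Rps15a, chr7:118116138-118116192, minus strand: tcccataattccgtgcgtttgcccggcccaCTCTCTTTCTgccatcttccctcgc
Rps10, chr17:27635220-27635277, minus strand: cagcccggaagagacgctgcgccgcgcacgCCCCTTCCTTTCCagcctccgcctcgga

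The run began at the first base before the RefSeq start in Rps6 and at base 41 after it in Rpl41, Rps2 and Rpl10. In these 3 and in Rpl39 it reached the end of the stretch searched, so its full length is not known from the window. Of the 77 members, 56 matched a RefSeq promoter window of 300 bases. A run of at least 9 C or T within 60 bases before to 50 after the start was found in 49 of these 56, or 87.5%, against 29.9% of the 11652 other tested genes with a window. Runs of at least 9 A or G in the same stretch, a control for base composition, were found in 17.9% of the members and 31.7% of the other genes. The letters CCGGAAG on either strand, a core bound by ETS factors, were held by 42.9% of the members and 17.4% of the others over the whole window. The TATA letters TATAAA were in 10.7% and 9.17%, and the GC-box letters GGGCGG in 62.5% and 66.2%, on either strand. CCGGAAG and its reverse complement can share letters with the runs, and a match describes letters only.

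Before the groups are compared, the make-up of the libraries has to be given. Libraries held between 14364013 and 19048551 counts, and RNA integrity numbers lay between 7.8 and 8.9. All tissue was labelled whole brain, yet a list of 15 cerebellar markers, none of them at 0 in any library, summed to 565 to 1140 CPM (counts scaled to the size of the library) in the ShK-223 libraries. The same sum was 620 to 2080 CPM in the PAP-1 libraries, 9590 to 10500 CPM in the PBS libraries and 930 to 9220 CPM in the Control libraries. The high Control value belonged to library 2. A cerebellar index was formed by dividing the CPM of every marker by its maximum over the libraries and averaging. It stood at 0.186 for PAP-1 1, at 0.875, 0.990 and 0.920 for PBS 1, 2 and 3 and at 0.806 for Control 2, and for the remaining 7 libraries it lay between 0.0314 and 0.0429. The 8 markers of forebrain excitatory neurons ran the other way, at 4970 to 6450 CPM in ShK-223, 4980 to 6580 in PAP-1, 1310 to 3030 in PBS and 2700 to 5770 in Control. The 10 microglial markers summed to 863 to 994 CPM in ShK-223, 725 to 1050 in PAP-1, 226 to 506 in PBS and 345 to 1440 in Control. The 7 astrocyte markers summed to 4900 to 5530 CPM in ShK-223, 4340 to 5850 in PAP-1, 3340 to 4230 in PBS and 3750 to 5730 in Control, where Control 2 was the lowest. The 6 oligodendrocyte markers summed to 2950 to 5830 CPM in ShK-223, 1810 to 3590 in PAP-1, 3810 to 7170 in PBS and 4230 to 5880 in Control, so the PAP-1 libraries lay below PBS. The part of these neuronal, microglial, astrocyte and oligodendrocyte differences in the results below was not tested. In bulk tissue, fewer cells of a type and less RNA per cell cannot be told apart, and the regional content of the libraries and the PBS group cannot be told apart either.

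The 77 genes together held about 1% of all counts, and least in the libraries rich in cerebellar markers. Their share of the counts was 1.24%, 1.10% and 1.12% in the ShK-223 libraries, 1.34%, 1.18% and 1.14% in the PAP-1 libraries, 0.950%, 0.839% and 0.977% in the PBS libraries and 1.42%, 0.874% and 1.26% in the Control libraries. Every ShK-223 and PAP-1 library was above every PBS library, while the Control group held the highest library of all and, in Control 2, a library within the range of PBS. The means were 1.15 ± 0.0765% in ShK-223, 1.22 ± 0.110% in PAP-1, 0.922 ± 0.0733% in PBS and 1.18 ± 0.280% in Control (SD, n = 3 each). Sorted by the cerebellar index instead of by group, the 4 libraries with an index over 0.8 ran from 0.839% to 0.977% and the other 8 from 1.10% to 1.42%. Fits with the index as a term are given below.

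**Figure D1:**
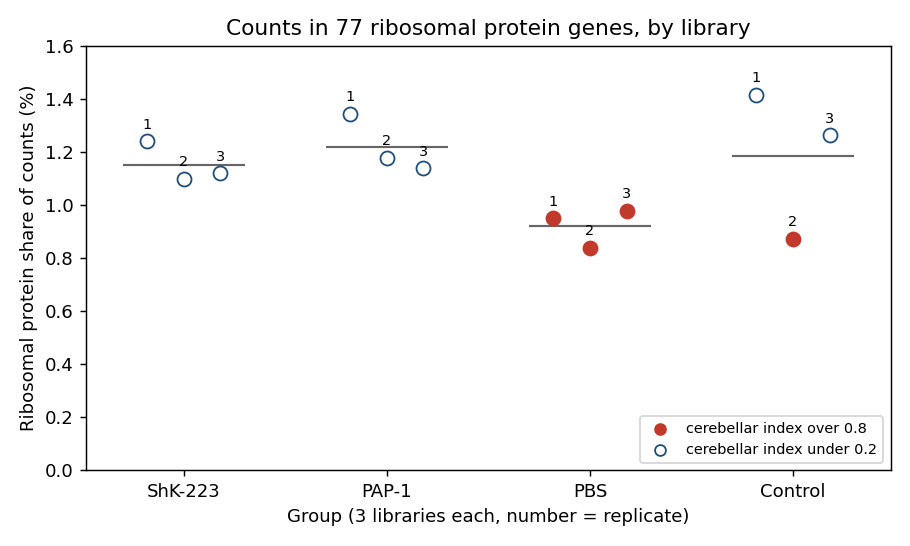
Share of all counts that fell in the 77 ribosomal protein genes, in percent, for each library (points, numbered by replicate) in the 4 groups, with the group mean as a line. Filled points mark the 4 libraries with a cerebellar index over 0.8, which run from 0.839% to 0.977%, and open points the other 8, which run from 1.10% to 1.42%.

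The same order of libraries recurred in most members. In 62 of 77 members, all 8 libraries with a low index were above PBS 1, 2 and 3 and Control 2, which was so for 18.4% of all genes tested. PBS 2, the library with the highest index, was the lowest of the 12 for 63 members. Control 1 was the highest for 48 and PAP-1 1 for 23. These counts of highest and lowest libraries were not set beside those over all genes tested. Some of the other members are described below.

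**Figure D2:**
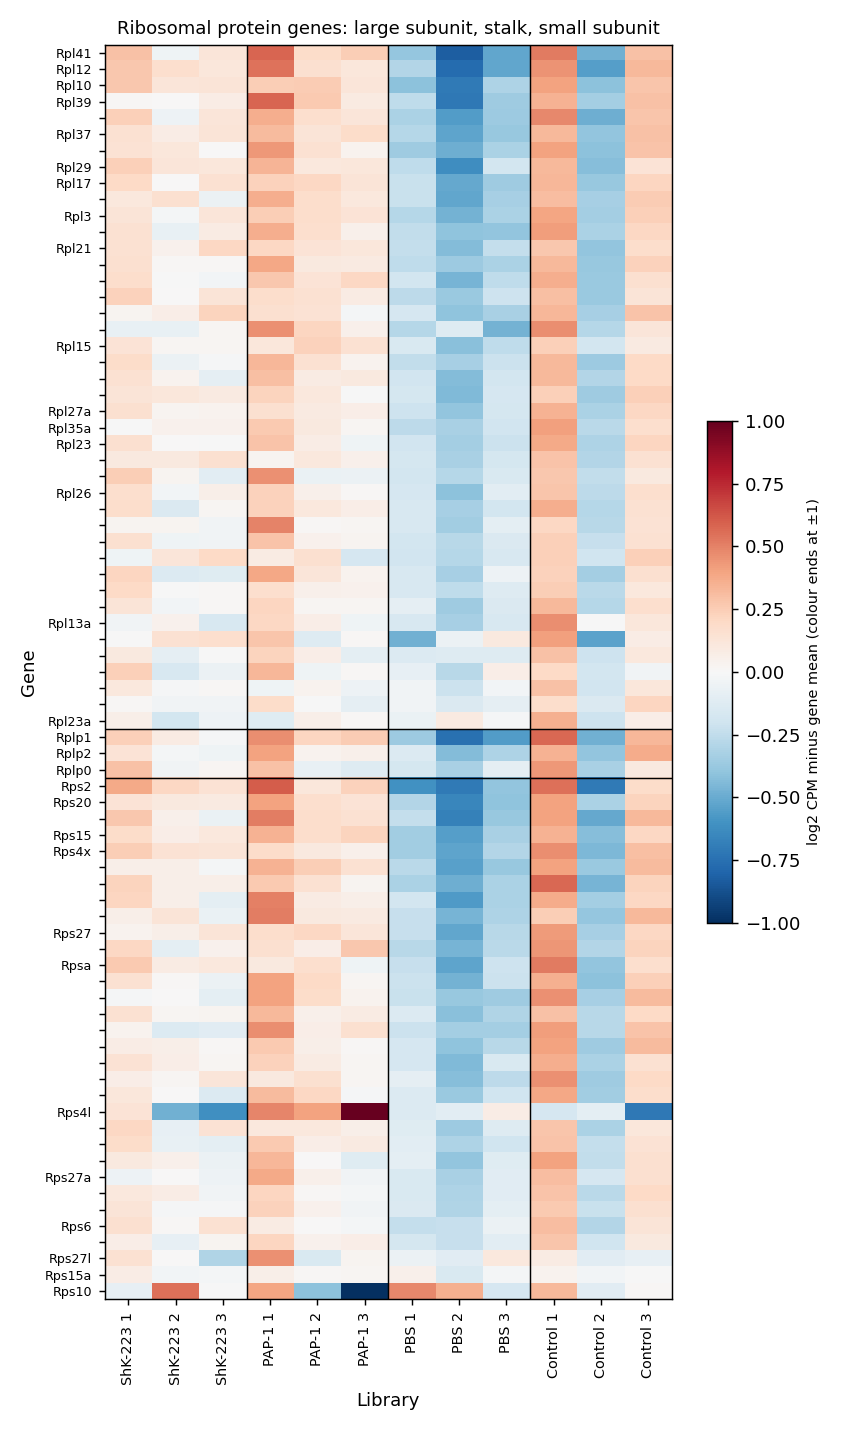
Level of each of the 77 genes (rows, grouped as large subunit, stalk and small subunit, then by fold change) in each of the 12 libraries (columns), as log2 CPM minus the mean of that gene, red for above and blue for below, with most of the genes described in the text labelled. The 3 PBS columns and Control 2 are blue for most rows. In some rows, among them Rps10, Rps4l, Rps15a and Rpl23a, not all of these columns are blue.

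Levels of different genes were compared per length, as CPM per kilobase of transcript, over the mean of the 12 libraries. The median of 76 members with an annotated transcript was 186.5 CPM per kilobase. Rps15, a small subunit protein near the decoding site, was the highest at 563, followed by the stalk protein gene Rplp1 at 547 and Rpl26, a large subunit protein beside the exit of the peptide tunnel, at 372. The lowest were Rps10 at 1.72, Rpl13a at 6.35 and Rps27l at 15.5. In 4 members at least 50% of the exon bases are shared with another gene in GENCODE M21, namely Rpl13a (53.3%, same strand), Rpl35 (68.3%, opposite strand), Rpl23a (55.4%, opposite strand) and Rpl30 (55.0%, opposite strand). Their median was 33.2 CPM per kilobase, against 189 for the other 72. Sharing just under that cut did not always go with a low level, as in Rps25 (48.7%, opposite strand) at 245. Rps27l, among the lowest, shares 0%. The part of shared bases in these levels was not tested. GENCODE also lists 293 pseudogenes named after 55 of the members, 24 each for Rpl31 and Rps12, and reads that fit a gene and its copy equally may have been split or dropped. The handling of such reads and the strand setting were not given in the sources used here.

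ShK-223 against PBS sets the peptide group beside the buffer group. Here and below, a gene that rose or fell with a compound was higher or lower than in PBS, and the cause was not tested. Of the 77 members, 14 were higher in ShK-223 and 0 were lower (edgeR quasi-likelihood test, Benjamini-Hochberg adjusted p under 0.05). That is 18.2% of the members, where 18.8% of all genes tested were called higher and 20.3% lower, so the share of higher calls was near the background. The fold changes were modest and on one side. Their median was 0.32 on the log2 scale, against -0.01 over all genes tested, and 73 of 77 were positive. In 66 members every ShK-223 library was above every PBS library, against 28.2% of all genes. With no adjustment 33 members were higher at a p under 0.05 (24.5% of all genes), and DESeq2 called 27 higher (22.7% of all genes). Among the called members were 9 of 42 in the large subunit, 4 of 32 in the small subunit and 1 of 3 in the stalk. The count was smaller when a compared library was left out, and so was the share of all genes called higher. It was 0 without ShK-223 1 (14.6% of all genes) or PBS 2 (10.1%), and 1 without ShK-223 3 (12.9%) or PBS 3 (11.4%). It was 2 without ShK-223 2 (14%) and 8 without PBS 1 (16.3%). The median stayed between 0.27 and 0.36.

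PAP-1 against PBS makes the same comparison for the small molecule. Here 36 members were higher in PAP-1 and 0 lower, which is 46.8% of the members, where 21.1% of all genes tested were called higher and 22.6% lower. The median log2 fold change was 0.41, against -0.01 over all genes, and 75 of 77 were positive. Again 66 members had every PAP-1 library above every PBS library, against 28.0% of all genes. The calls fell on 21 of 42 large subunit genes, 14 of 32 small subunit genes and 1 of 3 stalk genes. DESeq2 called 49 higher (24.5% of all genes), and 56 were higher at an unadjusted p under 0.05 (25.5% of all genes). With a compared library left out, the count was 2 without PBS 2 (12.7% of all genes were called higher), 12 without PAP-1 1 (18.7%) and 13 without PBS 3 (14.1%). It was 22 without PBS 1 (18.4%), 23 without PAP-1 2 (15.9%) and 24 without PAP-1 3 (15.3%), and the medians were 0.35 to 0.45. Of 20 called fold changes of genes described below, pooled over ShK-223 and PAP-1 against PBS, 18 no longer passed without PBS 2, all with the same sign. Both comparisons use the same 3 PBS libraries, so their values stand side by side and neither adds to the other.

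**Figure D3:**
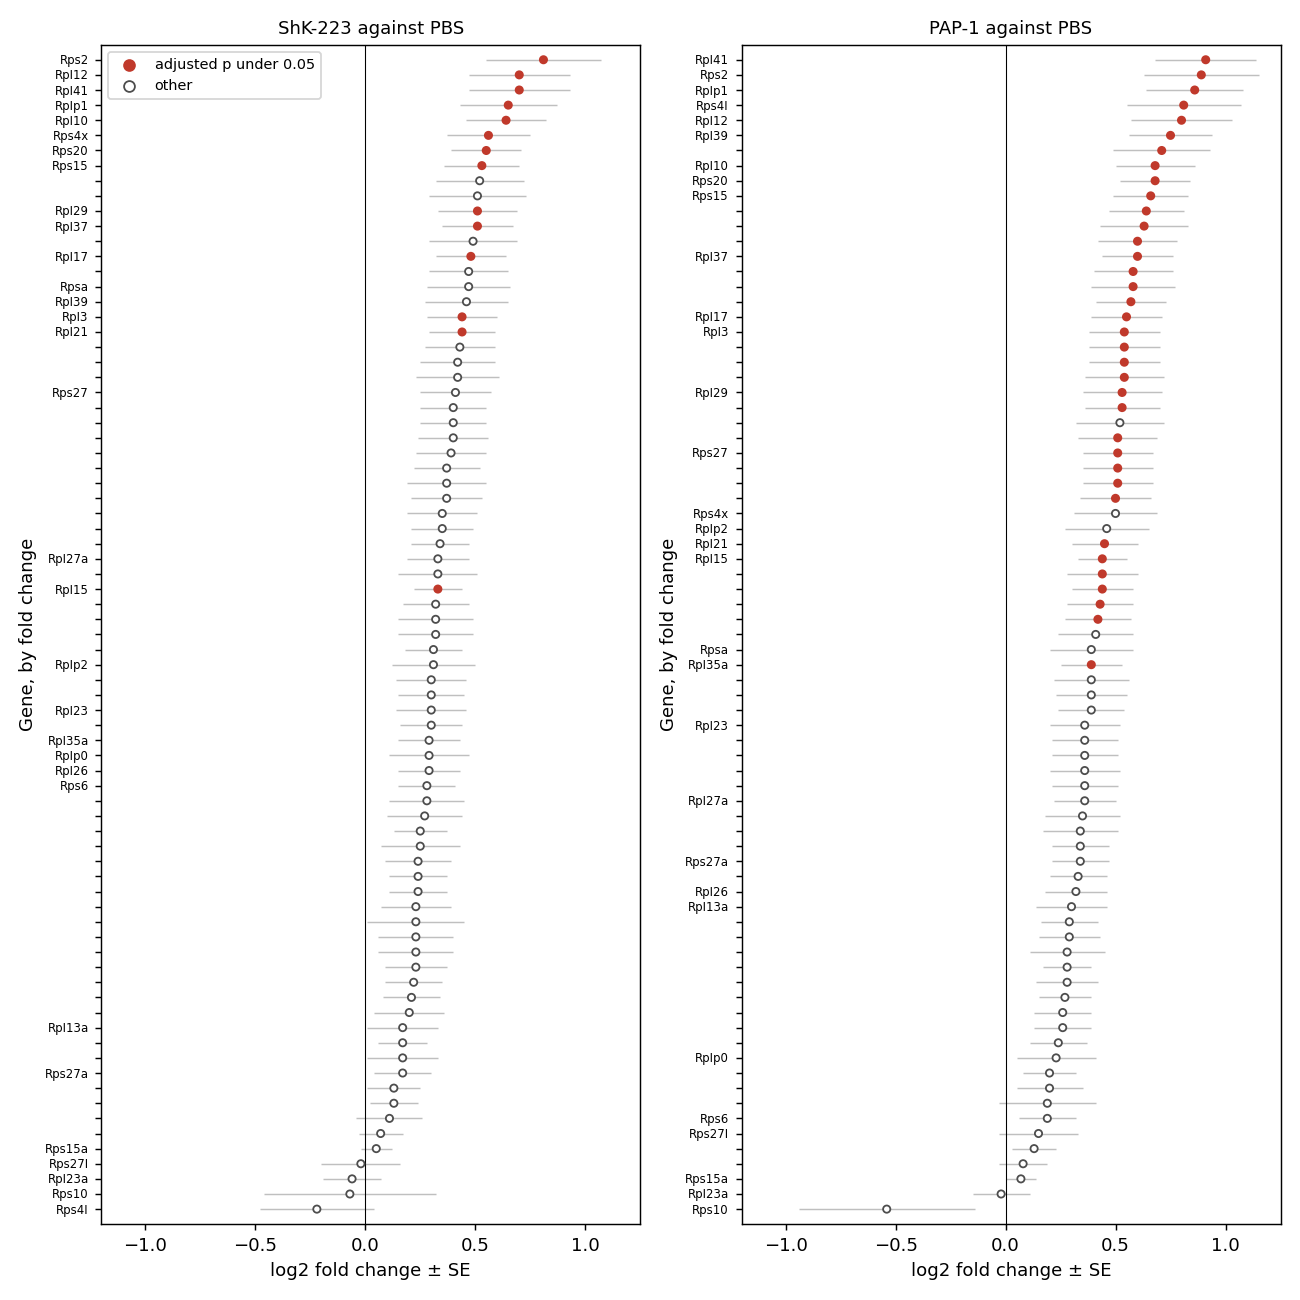
Log2 fold change with its standard error for each of the 77 genes in ShK-223 against PBS (left) and PAP-1 against PBS (right), sorted by size, with most of the genes described in the text labelled. Filled points have an adjusted p under 0.05, 14 on the left and 36 on the right, and all of these lie above 0.

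In the large subunit, Rpl41 had the largest change with PAP-1. It encodes the shortest ribosomal protein, a very basic peptide near the interface of the subunits (GRCm38 chromosome 10, 128548114 to 128549305, minus strand). Rpl41 was at 179, 142 and 159 CPM in ShK-223, 219, 166 and 173 CPM in PAP-1, 112, 82.7 and 102 CPM in PBS, and 210, 105 and 179 CPM in Control. No ShK-223 or PAP-1 library overlapped the PBS range, and Control 2 was the only library outside PBS that fell within it. The log2 fold change was 0.70 ± 0.23 (SE) for ShK-223 against PBS, with an adjusted p of 0.0337 (edgeR), and 0.91 ± 0.23 for PAP-1 against PBS, with an adjusted p of 0.0114.

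Rpl12 forms the base of the stalk together with ribosomal RNA, where translation factors dock (chromosome 2, 32961559 to 32965345, plus strand). It was at 183, 171 and 164 CPM in ShK-223, 221, 170 and 164 CPM in PAP-1, 124, 89.4 and 106 CPM in PBS and 207, 104 and 190 CPM in Control. Again no ShK-223 or PAP-1 library overlapped PBS and Control 2 did. The fold changes on the log2 scale were 0.70 ± 0.23 for ShK-223 (adjusted p 0.0354, edgeR) and 0.80 ± 0.23 for PAP-1 (adjusted p 0.0192). Rpl10, among the last proteins to join the large subunit and close to its catalytic centre (X chromosome, 74270812 to 74273135, plus strand), was at 191, 172 and 173 CPM in ShK-223, 188, 189 and 172 CPM in PAP-1, 119, 96.7 and 128 CPM in PBS and 209, 119 and 192 CPM in Control. Every ShK-223 and PAP-1 library of Rpl10 was above PBS, and Control 2 was within the PBS range. Its log2 fold changes were 0.64 ± 0.18 for ShK-223 (adjusted p 0.0210) and 0.68 ± 0.18 for PAP-1 (adjusted p 0.0154).

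Rpl3, which reaches into the catalytic centre (chromosome 15, 80077791 to 80091868, minus strand), took 4.16% of all member counts. It was at 503, 454 and 499 CPM in ShK-223, 546, 519 and 504 CPM in PAP-1, 376, 331 and 368 CPM in PBS and 603, 362 and 543 CPM in Control. Rpl3 rose by 0.44 ± 0.16 with ShK-223 (adjusted p 0.0478) and by 0.54 ± 0.16 with PAP-1 (adjusted p 0.0191), both on the log2 scale. Rpl39, a small protein that lines the peptide tunnel (X chromosome, 37082520 to 37085402, minus strand), was at 36.7, 36.4 and 38.4 CPM in ShK-223, 54.4, 43.6 and 38.7 CPM in PAP-1, 30.5, 22.2 and 28.5 CPM in PBS and 46.3, 28.7 and 44.5 CPM in Control. Its log2 fold change was 0.46 ± 0.19 with ShK-223 (adjusted p 0.0797) and 0.75 ± 0.19 with PAP-1 (adjusted p 0.0124). It passed the threshold with PAP-1 alone, and the difference between ShK-223 and PAP-1 was -0.29 ± 0.19 (adjusted p 0.984).

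The other large subunit genes called with ShK-223 were Rpl29, Rpl37, Rpl17, Rpl21 and Rpl15, with log2 fold changes from 0.33 for Rpl15 to 0.51 for Rpl29 and Rpl37. With PAP-1 the range over the called large subunit genes reached down to 0.39 for Rpl35a. Rpl26 was at 218, 190 and 202 CPM in ShK-223, 228, 201 and 195 CPM in PAP-1, 173, 146 and 180 CPM in PBS and 235, 162 and 218 CPM in Control. Although no ShK-223 or PAP-1 library of Rpl26 overlapped PBS, the log2 fold changes of 0.29 ± 0.14 with ShK-223 (adjusted p 0.121, edgeR) and 0.32 ± 0.14 with PAP-1 (adjusted p 0.0844) did not pass. Across the 76 members with a length, the log2 fold change and the logarithm of transcript length had a Pearson correlation of 0.00 for ShK-223 against PBS and -0.17 for PAP-1 against PBS, given as a description over genes that share libraries. By length, 8 of 14 members under 500 bases, 22 of 43 from 500 to under 1000 and 5 of 19 of 1000 or more were called with PAP-1, with median log2 fold changes of 0.51, 0.44 and 0.36. With ShK-223 the calls were 1 of 14, 10 of 43 and 3 of 19. Each length is that of a single annotated transcript per gene. Those of Rps15a (5130 bases) and Rps20 (3706 bases) are the longest, so their class and level per length depend on that choice. Of all genes tested, of any length, 21.1% were called higher with PAP-1 and 18.8% with ShK-223.

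The 3 stalk proteins form the arm that recruits elongation factors to the ribosome: Rplp0 is the anchor and Rplp1 and Rplp2 bind to it as pairs. Rplp1 (chromosome 9, 61913284 to 61914542, minus strand) was at 310, 278 and 261 CPM in ShK-223, 363, 305 and 313 CPM in PAP-1, 204, 157 and 178 CPM in PBS and 391, 188 and 331 CPM in Control. It rose with ShK-223 (log2 fold change 0.65 ± 0.22, adjusted p 0.0386) and with PAP-1 (0.86 ± 0.22, adjusted p 0.0125). Its partners did not pass the test. Rplp2 was at 104, 93.0 and 91.7 CPM in ShK-223, 125, 96.9 and 97.7 CPM in PAP-1, 86.1, 69.9 and 76.1 CPM in PBS and 120, 71.9 and 122 CPM in Control, with log2 fold changes of 0.31 ± 0.19 with ShK-223 (adjusted p 0.201) and 0.46 ± 0.19 with PAP-1 (adjusted p 0.0683). Rplp0 was at 236, 188 and 195 CPM in ShK-223, 236, 183 and 176 CPM in PAP-1, 170, 154 and 181 CPM in PBS and 260, 154 and 206 CPM in Control, and PAP-1 3 fell inside the PBS range. Its log2 fold changes were 0.29 ± 0.18 with ShK-223 (adjusted p 0.224) and 0.23 ± 0.18 with PAP-1 (adjusted p 0.322). Whether the 3 stalk genes differ from each other in these fold changes was not tested.

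In the small subunit, Rps2, at the entry of the mRNA channel (chromosome 17, 24718116 to 24721929, plus strand), had the largest change of all members with ShK-223. Rps2 was at 233, 207 and 198 CPM in ShK-223, 272, 194 and 210 CPM in PAP-1, 118, 110 and 136 CPM in PBS and 262, 110 and 203 CPM in Control. Each ShK-223 and PAP-1 library was well above each PBS library, and Control 2 was as low as the lowest PBS library. The log2 fold change was 0.81 ± 0.26 with ShK-223 (adjusted p 0.0311, edgeR) and 0.89 ± 0.26 with PAP-1 (adjusted p 0.0195).

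Rps15 (chromosome 10, 80292453 to 80294114, plus strand) was at 313, 289 and 296 CPM in ShK-223, 350, 312 and 321 CPM in PAP-1, 216, 188 and 220 CPM in PBS and 351, 205 and 318 CPM in Control. It rose by 0.53 ± 0.17 with ShK-223 (adjusted p 0.0299) and by 0.66 ± 0.17 with PAP-1 (adjusted p 0.0118). Rps20, in the head of the small subunit (chromosome 4, 3831334 to 3835665, minus strand), was at 88.2, 85.9 and 85.5 CPM in ShK-223, 106, 90.4 and 88.3 CPM in PAP-1, 65.7, 51.0 and 60.8 CPM in PBS and 106, 64.5 and 93.9 CPM in Control. Its 3 ShK-223 libraries lay within 3 CPM of each other, and the log2 fold changes were 0.55 ± 0.16 with ShK-223 (adjusted p 0.0252) and 0.68 ± 0.16 with PAP-1 (adjusted p 0.0103).

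Rps6, the small subunit protein phosphorylated by S6 kinases downstream of mTORC1 (chromosome 4, 86854660 to 86857412, minus strand), did not pass the test. Its levels were 175, 158 and 174 CPM in ShK-223, 166, 157 and 155 CPM in PAP-1, 133, 134 and 151 CPM in PBS and 194, 128 and 172 CPM in Control. The ShK-223 and PAP-1 libraries did not overlap PBS, and the log2 fold changes were 0.28 ± 0.13 with ShK-223 (adjusted p 0.117) and 0.19 ± 0.13 with PAP-1 (adjusted p 0.256). Rpsa, a small subunit protein also known as a laminin receptor (chromosome 9, 120127689 to 120132369, plus strand), was at 345, 304 and 309 CPM in ShK-223, 307, 322 and 279 CPM in PAP-1, 244, 199 and 249 CPM in PBS and 412, 218 and 322 CPM in Control. The log2 fold changes of Rpsa were 0.47 ± 0.19 with ShK-223 (adjusted p 0.0729) and 0.39 ± 0.19 with PAP-1 (adjusted p 0.118). Rps27a, whose protein is made as a fusion with ubiquitin (chromosome 11, 29545846 to 29548109, minus strand), had log2 fold changes of 0.17 ± 0.13 with ShK-223 (adjusted p 0.333) and 0.34 ± 0.13 with PAP-1 (adjusted p 0.0595). Its highest PBS library was at 108 CPM and its lowest ShK-223 library at 113 CPM.

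**Figure D4:**
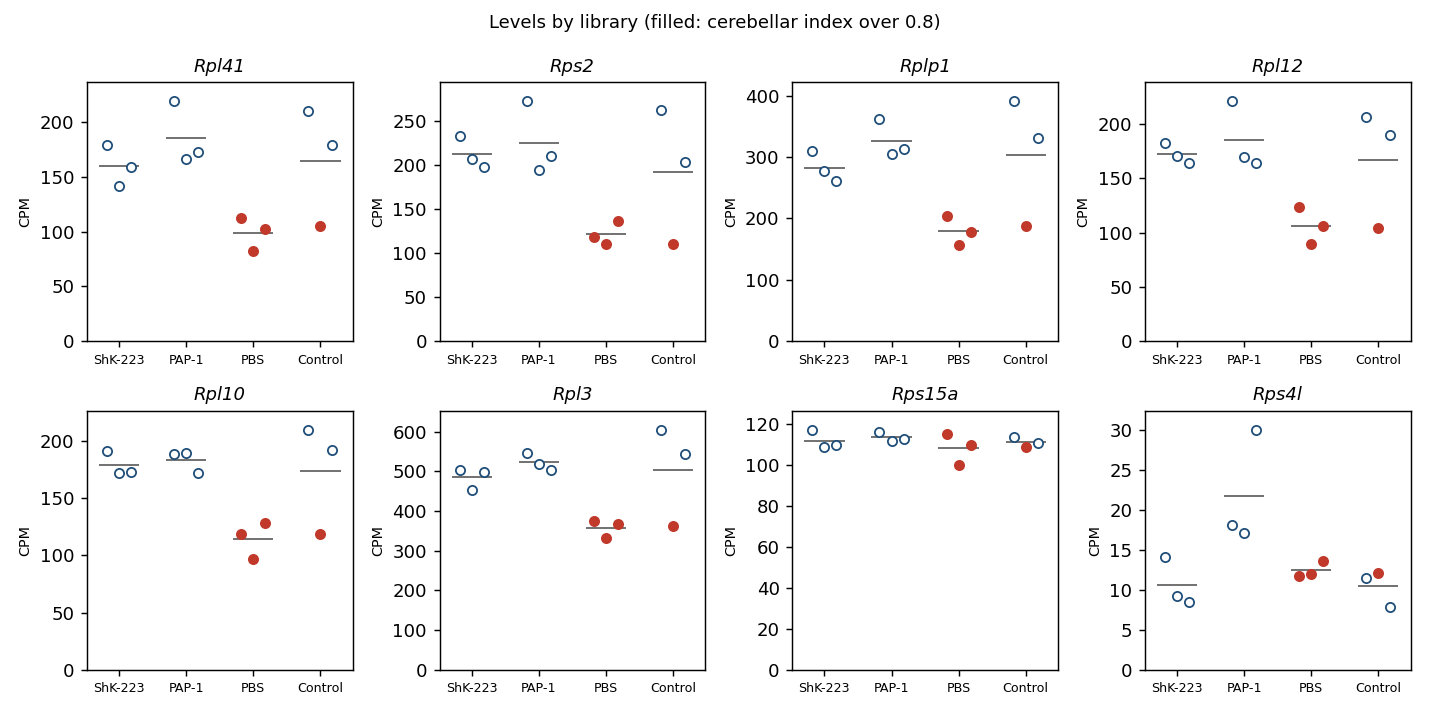
Level in CPM of 8 ribosomal protein genes in each library (points) of the 4 groups, with the group mean as a line and the 4 libraries with a cerebellar index over 0.8 filled. In Rpl41, Rps2, Rplp1, Rpl12, Rpl10 and Rpl3 the filled points lie below the open ones, in Rps15a filled and open points mix, and in Rps4l the 3 PAP-1 libraries stand above all others.

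Some members have paralogs that are known to be restricted in tissue or that matched the naming rule. Rpl3l of striated muscle and Rpl10l and Rpl39l of testis stayed under 100 counts over the 12 libraries. Rps4l is annotated in GENCODE M21 as a transcribed processed pseudogene on chromosome 6 (148354656 to 148355598) and is a copy of Rps4x, so its reads may be uncertain. It was at 14.2, 9.29 and 8.46 CPM in ShK-223, 18.2, 17.1 and 30 CPM in PAP-1, 11.8, 12.0 and 13.6 CPM in PBS and 11.5, 12.1 and 7.90 CPM in Control. The PAP-1 libraries were above all 9 others, unlike any other member. The log2 fold change was -0.22 ± 0.26 for ShK-223 against PBS (adjusted p 0.517) and 0.81 ± 0.26 for PAP-1 against PBS (adjusted p 0.0305, edgeR).

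Rps4x itself (X chromosome, 102184941 to 102189394, minus strand) was at 236, 220 and 218 CPM in ShK-223, 226, 213 and 207 CPM in PAP-1, 157, 138 and 163 CPM in PBS and 275, 146 and 246 CPM in Control. It passed with ShK-223 (log2 fold change 0.56 ± 0.19, adjusted p 0.0373), and with PAP-1 it stood at 0.50 ± 0.19 (adjusted p 0.0517). Rps27 stood at 0.41 ± 0.16 with ShK-223 (adjusted p 0.0594) and rose with PAP-1 (0.51 ± 0.16, adjusted p 0.0259). Its paralog Rps27l, known as a target of p53, was at 8.52, 7.67 and 6.21 CPM in ShK-223, 10.5, 6.91 and 7.83 CPM in PAP-1, 7.35, 7.09 and 8.24 CPM in PBS and 8.11, 7.09 and 7.23 CPM in Control. The groups of Rps27l overlapped, with log2 fold changes of -0.02 ± 0.18 with ShK-223 (adjusted p 0.944) and 0.15 ± 0.18 with PAP-1 (adjusted p 0.511).

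Not all members followed the order of the libraries, and some that did not had many counts. Rpl13, with 37177 counts, was at 181, 201 and 203 CPM in ShK-223, 219, 166 and 183 CPM in PAP-1 and 130, 174 and 194 CPM in PBS. Its log2 fold changes were 0.23 ± 0.22 with ShK-223 and 0.19 ± 0.22 with PAP-1. Rpl18 (21272 counts) and Rpl22 (18027 counts) also overlapped PBS with both compounds. Rpl13, Rpl18 and Rpl22 were chosen after their values were seen. Rps15a, chosen for its flatness after its values were seen (chromosome 7, 118104372 to 118116188, minus strand), was at 117, 109 and 110 CPM in ShK-223, 116, 112 and 113 CPM in PAP-1, 115, 100 and 110 CPM in PBS and 114, 109 and 111 CPM in Control. Against PBS its log2 fold change was 0.05 ± 0.07 with ShK-223 and 0.07 ± 0.07 with PAP-1. Rpl23a, which shares most of its exon bases with a gene on the other strand, ran from 24.3 to 28.7 CPM in ShK-223, 25.4 to 28.7 in PAP-1, 26.3 to 29.3 in PBS and 23.9 to 35.4 in Control. Rps10, with 306 counts over all libraries, had 1.37, 2.13 and 1.45 CPM in ShK-223, 1.91, 1.09 and 0.576 CPM in PAP-1, 2.02, 1.86 and 1.29 CPM in PBS and 1.82, 1.34 and 1.46 CPM in Control. Its log2 fold change with PAP-1 was -0.54 ± 0.40 (adjusted p 0.290). Rpl13a, with 1345 counts, had log2 fold changes of 0.17 ± 0.16 with ShK-223 (adjusted p 0.415) and 0.30 ± 0.16 with PAP-1 (adjusted p 0.145).

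The make-up of the family was followed as well. The share of each gene in the counts of all members varied over the 12 libraries with a median coefficient of variation of 6.47% among the 74 members with a mean of at least 10 CPM. Among the steadiest were Rpl27a at 2.69% and Rpl23 (a large subunit protein known to bind Mdm2) at 3.18%. Rpl27a was at 216, 197 and 198 CPM in ShK-223, 216, 205 and 202 CPM in PAP-1, 167, 147 and 171 CPM in PBS and 155 to 245 CPM in Control, with every ShK-223 and PAP-1 library above every PBS library. The least steady were Rps4l at 41.5%, Rpl23a at 16.7% and Rps2 at 16.4%. Rpl27a and Rpl23 had log2 fold changes of 0.30 to 0.36 against PBS with either compound, and neither passed the test.

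ShK-223 against PAP-1 compares the 2 Kv1.3 blockers. Whether their doses match is unknown. By edgeR 0 members were called, where 0% of all genes tested were called in either direction, and DESeq2 called 0 members and 0.0348% of all genes. The median log2 fold change was -0.10, with 65 of 77 negative, against 0.00 over all genes. In 8 members every ShK-223 library was below every PAP-1 library (5.64% of all genes), among them Rps4l, Rpl39, Rps20 and Rpl3. With no adjustment Rps4l alone had a p under 0.05 (1.94% of all genes, in the lower direction), at -1.03 ± 0.26 (p 0.00261, adjusted p 0.984).

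Against Control, every library with either compound lay, by share of counts, between Control 2 at 0.874% and Control 1 at 1.42%. Control 3 was at 1.26%, and Control 2 has a cerebellar index of 0.806. A median near 0 here does not show equal levels, since it averages over this split. Within batches, most members were lower than in Control 1 or 3, and PAP-1 against Control 2 went the other way, as given below. In ShK-223 against Control 0 members were called by edgeR, 0 by DESeq2 and 0 at an unadjusted p under 0.05, with a median log2 fold change of -0.04. Over all genes tested these shares were 0%, 0.0696% and 6.82%. In PAP-1 against Control 0 members were called by edgeR, again with 0% of all genes, and the median was 0.06. DESeq2 called 1 member higher there, Rps4l (2.77% of all genes were called in either direction). Rps4l was also the only member with an unadjusted p under 0.05 (6.78% of all genes, higher) and the only member without overlap (9.06% of all genes, higher), with a log2 fold change of 1.05 ± 0.26 and an adjusted p of 0.209 by edgeR. The Control libraries spread widely, as in Rpl3 at 603, 362 and 543 CPM.

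PBS against Control sets the buffer group beside the group labelled Control. Again 0 members were called by edgeR, where 5.02% of all genes tested were called, 4.61% lower in PBS. The median log2 fold change was -0.37, against 0.01 over all genes, and 74 of 77 were negative. At an unadjusted p under 0.05 there were 48 members, all lower in PBS (19.6% of all genes), and DESeq2 called 20, all lower (14.2% of all genes). In Rpl13a alone every PBS library was below every Control library, which was so for 15.8% of all genes. Without Control 2, edgeR called 67 members lower in PBS with a median of -0.53, where 21.2% of all genes tested were called lower. Rplp1, for example, stood at -0.75 ± 0.22 (adjusted p 0.0650) in the full set, and its Control libraries 1 and 3 at 391 and 331 CPM were above every PBS library while Control 2 at 188 CPM was not.

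Library Control 2 also bore on the calls against PBS, since all groups share an estimate of the spread. Without it, 51 members were called higher in ShK-223, where 22.5% of all genes tested were, and 62 in PAP-1, where 24.2% were. Without Control 2 and PAP-1 1, 56 members were higher in ShK-223 (24.7% of all genes). In PAP-1, 53 were higher (23.7% of all genes) and 1, Rps10, was lower (26.3% of all genes). The same fit called 70 members lower in PBS against Control (23.2% of all genes). With the cerebellar index as a term, 0 members were called in either comparison and the median log2 fold changes turned to -0.29 for ShK-223 and -0.16 for PAP-1. In that fit 0 of all genes tested were called as well, and the effect of the index was estimated mainly from Control 2. With batch as a term 0 members were called, with medians of 0.22 for ShK-223 and 0.32 for PAP-1. Over all genes tested, that fit called 4 with ShK-223 and 2752 with PAP-1.

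The labels give 3 batches without saying what they stand for, and few of them hold libraries of both groups compared. Within batch CH the 2 ShK-223 libraries set against the single PBS library, PBS 2, gave a median log2 ratio of 0.48, with 74 of 77 members higher. PBS 2 had the highest cerebellar index, 0.990, and was the lowest of the 12 libraries for 63 members. In batch C, 1 PAP-1 library against 2 PBS libraries gave 0.33, with 73 higher. For PBS against Control the batches went opposite ways. In batch C, where the Control library was Control 2, 72 members were higher in the 2 PBS libraries with a median of 0.11. In batch CH, PBS 2 against Control 3 gave 74 members lower, with a median of -0.60. ShK-223 against Control gave medians of -0.32 in batch B, with 76 members lower, and -0.10 in batch CH, with 63 lower. PAP-1 against Control gave -0.15 in batch B, with 71 lower, and 0.43 with 75 higher in batch C, where the Control library was again Control 2. ShK-223 against PAP-1 could be set up in batch B only and gave -0.17, with 69 lower. These ratios have no replicate check, and the counts of members were not set beside those over all genes tested.

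Lists of other genes of the translation apparatus, chosen for their function, had smaller medians. Their calls are to be read beside those over all genes tested. In ShK-223 against PBS 18.8% of all genes were called higher and 20.3% lower, and in PAP-1 against PBS 21.1% higher and 22.6% lower. Among 24 other TOP messages, 4 were higher and 1 lower in ShK-223 against PBS, and 7 higher and 1 lower in PAP-1 against PBS, with median log2 fold changes of 0.12 for ShK-223 and 0.15 for PAP-1. Eef1a1, the elongation factor that delivers tRNA, was at 2010, 1840 and 1920 CPM in ShK-223, 1870, 1880 and 1970 CPM in PAP-1, 1390, 1140 and 1280 CPM in PBS and 2480, 1360 and 2110 CPM in Control, with the libraries in the order seen for most members. Its log2 fold changes were 0.60 ± 0.18 with ShK-223 (adjusted p 0.0251) and 0.59 ± 0.18 with PAP-1 (adjusted p 0.0246). Eef2, the elongation factor for translocation, did not pass, with log2 fold changes of -0.10 ± 0.08 with ShK-223 (adjusted p 0.328) and -0.16 ± 0.08 with PAP-1 (adjusted p 0.112). Eef1d, a subunit of the factor that recharges Eef1a1, was lower at -0.32 ± 0.08 with ShK-223 (adjusted p 0.0145) and -0.26 ± 0.08 with PAP-1 (adjusted p 0.0293).

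Of 34 other initiation and elongation factors, 3 were higher and 2 lower in ShK-223, and 4 higher and 3 lower in PAP-1, with medians of -0.02 for ShK-223 and 0.03 for PAP-1. Over all genes tested, 18.8% were called higher and 20.3% lower in ShK-223, and 21.1% higher and 22.6% lower in PAP-1. Eif5a, a factor that relieves stalled ribosomes, rose by 0.36 ± 0.10 with ShK-223 (adjusted p 0.0188) and 0.51 ± 0.10 with PAP-1 (adjusted p 0.00474). Eef2k, the kinase that inhibits Eef2, fell by 0.51 on the log2 scale with ShK-223 (adjusted p 0.0247) and by 0.46 with PAP-1 (adjusted p 0.0320). Of 43 ribosome biogenesis genes, 8 were higher and 9 lower in ShK-223, and 10 higher and 7 lower in PAP-1. Nhp2, a protein of the RNA-modifying H/ACA particles, rose by 0.73 ± 0.19 with ShK-223 (adjusted p 0.0146) and 0.96 ± 0.19 with PAP-1 (adjusted p 0.00496). Polr1b, a subunit of the polymerase for ribosomal RNA, fell by 0.65 with ShK-223 (adjusted p 0.0205) and by 0.69 with PAP-1 (adjusted p 0.0142). Of 21 genes of mTORC1 and Myc control, 3 were higher and 4 lower in ShK-223, and 3 higher and 6 lower in PAP-1. Mtor itself stood at -0.02 ± 0.09 with ShK-223 and -0.09 ± 0.09 with PAP-1, and Larp1 at 0.02 ± 0.12 with ShK-223 and 0.17 ± 0.12 with PAP-1. Myc, at 8.79, 5.26 and 5.63 CPM in ShK-223, 8.21, 5.60 and 4.66 CPM in PAP-1, 3.00, 1.24 and 3.20 CPM in PBS and 5.45, 3.72 and 6.67 CPM in Control, was called higher with ShK-223 (adjusted p 0.0181, edgeR) and with PAP-1 (adjusted p 0.0210). Mycl was also called higher in both comparisons. Max was called lower, at -0.92 ± 0.24 with ShK-223 (adjusted p 0.0147, edgeR) and -0.83 ± 0.24 with PAP-1 (adjusted p 0.0186). Mxd4, Eif4ebp2 and Mlst8 of the same list were called lower in both comparisons as well.

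Mitochondrial ribosomal proteins are encoded by nuclear genes of their own and serve another ribosome. Of 78, 0 were higher and 6 lower in ShK-223 and 9 higher and 6 lower in PAP-1 by edgeR, with 18 in ShK-223 and 20 in PAP-1 at an unadjusted p under 0.05. Their medians were -0.02 for ShK-223 and 0.02 for PAP-1. The edgeR shares over all genes tested were 18.8% higher and 20.3% lower in ShK-223, and 21.1% higher and 22.6% lower in PAP-1. The proteasome, a large complex not involved in translation, had 4 of 37 tested genes higher and 0 lower in ShK-223, and 11 higher and 0 lower in PAP-1, with medians of 0.12 for ShK-223 and 0.20 for PAP-1. The cytosolic ribosomal proteins had the highest median of these lists in both comparisons, 0.32 for ShK-223 and 0.41 for PAP-1, with no test between lists.

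**Figure D5:**
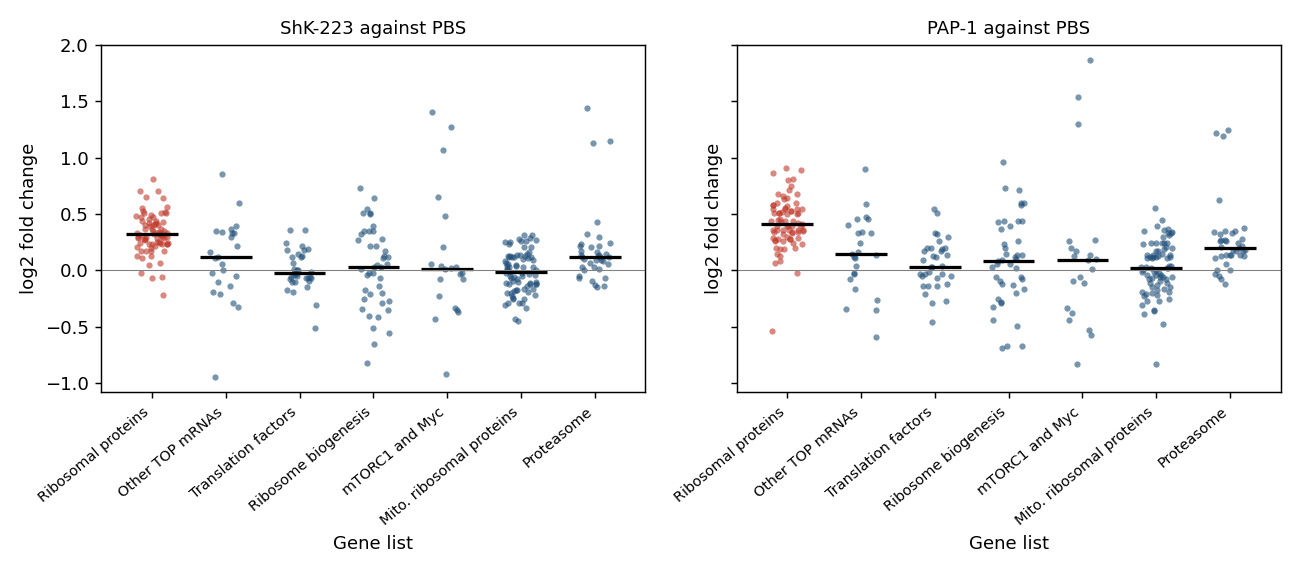
Log2 fold change of each tested gene (points) in 7 gene lists for ShK-223 against PBS (left) and PAP-1 against PBS (right), with the list median as a bar. The ribosomal protein genes (red) have medians of 0.32 on the left and 0.41 on the right, and the mitochondrial ribosomal protein genes medians of -0.02 on the left and 0.02 on the right.

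Returning to the start-site sequences, called members were found both with and without a pyrimidine run. Of the 49 members with a run, 6 were called with ShK-223 and 25 with PAP-1, with medians of 0.33 for ShK-223 and 0.43 for PAP-1. Of the 7 without, 2 were called with ShK-223 and 2 with PAP-1, with medians of 0.29 for ShK-223 and 0.36 for PAP-1. All these calls were higher against PBS, where 18.8% of all genes tested were called higher with ShK-223 and 21.1% with PAP-1. Rps15a and Rps10, which were flat or too low to judge, hold runs of 10 and 13 bases.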

How the data were processed

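RNA of 12 brains was sequenced, with 3 libraries in each of 4 groups. The authors deposited a table of raw whole-number counts per gene. Alignment was to GRCm38 (mm10) with STAR 2.7.11a, and R 4.3.2 and DESeq2 1.40.2 were used, per the submitters' processing notes. The tool that counted reads, whether it used strand, and the gene annotation were not given in the sources used here, so reads of overlapping genes, antisense genes and near-identical copies may be shared or lost.

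From the deposited counts, edgeR 4.0.16 under R 4.3.3 filtered genes with filterByExpr, which left 15061, scaled libraries by TMM, and ran the quasi-likelihood test on all 12 libraries with group as the term. P-values were adjusted over all genes tested by the Benjamini-Hochberg method in each of 6 comparisons, with calls at 0.05, and measure the spread between mice of these groups. The standard error is the log2 fold change over the root of F. CPM are on TMM-scaled totals, and shares are of raw totals. Transcript lengths and positions are from GENCODE M21, and sequences from RefSeq (GRCm38.p6). The scripts were tested on simulated counts. No 2 libraries agreed within sampling noise (lowest chi-square per gene 7.07).

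Members named with values are, by rule, the 5 called members with the largest change each way in the comparisons with PBS, members called elsewhere, stalk genes and a few of known roles, paralogs, the 3 highest and lowest per length, and the 3 most and least steady shares. A result that this rule names is not reported here. The members, lists and this rule were chosen with earlier results of these data known. Rps15a, Rpl13, Rpl18 and Rpl22 were added after their values were seen. Alternatives were RLE factors, TMM without the members, DESeq2 1.42.0, 2 other filters, batch, RNA integrity or the cerebellar index as a term, and leaving out libraries. The fits against PBS without Control 2 were added after seeing the data.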

Additional observations from a re-analysis of the deposited data

How the results depend on the processing

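The direction of the members' median in the comparisons with PBS held under RLE factors, TMM without the members, DESeq2, 2 other filters, batch or RNA integrity as a term and every left-out library. It turned with the cerebellar index as a term. For ShK-223 against PBS (14 members called) the count was 27 with DESeq2, 0 with batch as a term, 0 with the index, 56 without Control 2 and PAP-1 1, and 0 to 51 when single libraries were left out: 0 without ShK-223 1 or PBS 2, 1 without ShK-223 3 or PBS 3, 2 without ShK-223 2, 8 without PBS 1 and 51 without Control 2. For PAP-1 against PBS (36 called) it was 0 with batch, 0 with the index, and 2 to 62 with single libraries left out: 2 without PBS 2, 12 without PAP-1 1, 13 without PBS 3, 22 without PBS 1, 23 without PAP-1 2, 24 without PAP-1 3 and 62 without Control 2. For PBS against Control (0 called) it was 20 with DESeq2, 70 without Control 2 and PAP-1 1 (23.2% of all genes were called lower), and 0 to 67 with single libraries left out. For PAP-1 against Control (0 called) it was 1 with DESeq2. Over all 15061 genes tested, 4 were called for ShK-223 against PBS and 2752 for PAP-1 against PBS with batch as a term, so the PAP-1 fit still made calls but none among the members. With the index, 0 were called in either comparison.

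With the index as a term, 16 of the 20 called fold changes of named members turned negative on the log2 scale, and 4, all for PAP-1, stayed positive without passing: Rpl41 at 0.03, Rps20 at 0.03, Rpl39 at 0.11 and Rps4l at 1.06. Giving ShK-223 and then PAP-1 against PBS, the negative ones were Rpl10 at -0.22 and -0.13, Rpl12 at -0.29 and -0.12, Rpl3 at -0.30 and -0.14, Rplp1 at -0.37 and -0.10, Rps15 at -0.24 and -0.07, and Rps2 at -0.30 and -0.14. For ShK-223 alone they were Rpl41 at -0.25, Rps20 at -0.14 and Rps4x at -0.36, and for PAP-1 alone Rps27 at -0.20. The cause was not tested. All PBS libraries have a high index, so the term and the group cannot be told apart there. Within groups the index differed mainly in Control, at 0.806 in Control 2 against 0.0379 in Control 1 and 0.0429 in Control 3. The fold changes with the term therefore rest mainly on Control 2. No paired analysis was possible because replicate numbers only name the samples and mark no shared animal, litter or day.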
